A study of Homo sapiens with 6 samples.

Results

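The 10 genes described here encode transcription factors that specify the neural plate border and the neural crest: PAX3, PAX7, MSX1, DLX5, TFAP2A, TFAP2B, TFAP2C, FOXD3, SOX9 and SOX10. They are given by symbol, by a rule that sets no threshold on measured values, and all 10 were found among the 27672 genes of the expression table. Polyadenylated RNA was sequenced in 3 biological replicates of H9 human embryonic stem cells (hESCs, day 0) and 3 of neuromesodermal progenitor-like cells (NMP-L, day 3) made from the same line. The hESCs were grown without feeders, with bFGF at 30 ng/ml and the BMP antagonist Noggin at 10 ng/ml. The NMP-L cells had been exposed for 3 days, in N2/B27 medium, to bFGF at 20 ng/ml and to CHIR99021 at 3 µM, an inhibitor of GSK3 that activates Wnt signalling. In making neural progenitors from NMP-L cells, the study's methods add BMP and TGFβ inhibitors over an interval that begins before day 3. The labels of these libraries name none, so whether the NMP-L cells met such inhibitors is not settled by the sources used here. All 6 libraries came from 1 unmodified line in culture, which limits them as a model of the embryo, and a change of medium is part of the comparison. The comparison asks which of these factors differ in transcript level between pluripotent cells and cells at the bipotent caudal stage from which spinal cord and paraxial mesoderm arise. In such bulk cultures, fewer cells of a type and less RNA per cell cannot be told apart.

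The neural plate border is the strip of ectoderm between the neural plate and the future epidermis. Border factors such as PAX3, PAX7, MSX1, DLX5 and the TFAP2 proteins are induced there by BMP, Wnt and FGF signals, and they in turn activate crest specifiers such as FOXD3, SOX9 and SOX10. Crest cells leave the dorsal neural tube and give rise to peripheral neurons and glia, melanocytes and, in the head, cartilage and bone. Several of these genes also act elsewhere: FOXD3 is expressed in pluripotent cells, TFAP2C in trophoblast and germ cells, and SOX9 in chondrocytes and many progenitors.

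Library totals lay between 19454543 and 23036426 expected counts. The markers of both labelled states were present: 5 of 6 NMP genes rose and 1 fell, with T (brachyury) at 0, 0 and 2 counts in hESCs and 537, 293 and 629 in NMP-L cells, and 4 of 6 pluripotency genes fell. POU5F1 and SOX2 stayed abundant in NMP-L cells, with mean CPM of 703 and 278. CPM is the count per 1000000 counts of a library after TMM scaling, and a value after ± is the SD over 3 replicates.

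Promoter sequences show what the start regions of members with very different behaviour look like. Windows of 300 bases, from 250 bases before to 50 after the start (RefSeq, GRCh38.p14), were at hand for 6 of the 10 members: PAX3, PAX7, MSX1, FOXD3, TFAP2A and TFAP2B, and not for TFAP2C, SOX9, SOX10 and DLX5. The windows shown are those of FOXD3 (chr1:63322317-63322616, plus strand), which fell most, MSX1 (chr4:4859415-4859714, plus strand), which became detectable, and the paralogues PAX7 (chr1:18630596-18630895, plus strand) and PAX3 (chr2:222298949-222299248, minus strand), of which PAX7 was detected and PAX3 was not above the floor. Each is written 5′ to 3′ on the strand of its gene, and capitals mark the motifs found.
FOXD3: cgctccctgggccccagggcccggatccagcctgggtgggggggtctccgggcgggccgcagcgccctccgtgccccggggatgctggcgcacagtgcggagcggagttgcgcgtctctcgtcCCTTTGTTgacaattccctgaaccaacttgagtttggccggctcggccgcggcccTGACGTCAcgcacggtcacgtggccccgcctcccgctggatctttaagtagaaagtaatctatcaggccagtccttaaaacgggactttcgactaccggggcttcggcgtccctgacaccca
MSX1: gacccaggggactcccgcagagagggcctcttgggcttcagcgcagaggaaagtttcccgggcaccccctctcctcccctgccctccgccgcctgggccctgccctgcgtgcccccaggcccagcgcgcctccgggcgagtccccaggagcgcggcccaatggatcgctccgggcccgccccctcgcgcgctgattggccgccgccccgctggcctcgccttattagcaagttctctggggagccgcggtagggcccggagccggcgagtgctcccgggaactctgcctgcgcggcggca
PAX7: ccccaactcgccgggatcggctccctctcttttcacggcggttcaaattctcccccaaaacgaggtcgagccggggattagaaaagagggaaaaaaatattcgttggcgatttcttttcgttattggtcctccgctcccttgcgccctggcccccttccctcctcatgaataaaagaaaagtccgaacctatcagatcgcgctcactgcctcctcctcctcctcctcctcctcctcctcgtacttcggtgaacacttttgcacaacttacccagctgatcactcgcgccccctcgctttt
PAX3: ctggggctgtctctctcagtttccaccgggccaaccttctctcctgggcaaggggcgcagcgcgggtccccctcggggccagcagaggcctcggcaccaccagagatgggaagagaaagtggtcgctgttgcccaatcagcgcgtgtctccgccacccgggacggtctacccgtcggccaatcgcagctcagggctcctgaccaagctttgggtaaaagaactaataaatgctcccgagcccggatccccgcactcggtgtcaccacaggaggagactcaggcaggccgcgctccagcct

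These windows were searched on both strands for the letters that TCF/LEF (CTTTG followed by 2 bases that are each A or T), TFAP2 (GCCNNNGGC), cAMP response factors (TGACGTCA), SOX proteins (ACAATGG, with ACAAAGG as the other form) and CDX proteins (TTTATGG, with TTTATTG as the other form) are known to prefer. FOXD3 was the only member with a match. It held CTTTGTT at bases 125 to 131 of the window, which overlaps a SOX match on the other strand at bases 124 to 130, and TGACGTCA at bases 179 to 186. Of 35116 promoter windows of the same length, 13.8% held a TCF/LEF match, 23.2% a TFAP2 match, 1.85% the cAMP response motif, 8.25% a SOX match and 6.35% a CDX match. The windows of PAX3, PAX7, MSX1, TFAP2A and TFAP2B held none of these letters. GC content was 66.3% for FOXD3, 74.7% for MSX1, 54.3% for PAX7 and 64.7% for PAX3, beside a median of 58.7% over all windows. The windows of FOXD3 and MSX1 held 29 and 31 CpG pairs, those of PAX7 and PAX3 21 each, and that of TFAP2B 5, beside a median of 14.

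In outline, SOX9 rose, FOXD3 fell to a small remnant, SOX10 fell by a smaller factor, TFAP2C was the most abundant member in both states with a slight rise, and MSX1 became detectable. PAX7 stayed low in both states, and PAX3, DLX5, TFAP2A and TFAP2B were at or near the limit of detection. A floor of 3 counts, equal to 0.125 to 0.160 CPM, was used as that limit, and floors cover counting error only. Of the 10 members, 5 passed the filter on low counts and were tested, 4 were called at an adjusted p under 0.05 (edgeR, quasi-likelihood, Benjamini-Hochberg), and 1 was not. The called members were 2 higher (SOX9 and TFAP2C) and 2 lower (FOXD3 and SOX10) in NMP-L cells. Of the 15517 genes tested, 55.8% were called, 29.1% higher and 26.7% lower, so the members' count stands against a background in which most genes were called. The libraries of both states did not overlap for 5 members, SOX9, TFAP2C and MSX1 being higher and FOXD3 and SOX10 lower, and for 50.9% of the 20912 genes with any count. The median log2 fold change (NMP-L over hESC) of the 5 tested members was 0.17, and that of all tested genes 0.03. With 3 libraries against 3, the smallest p an exact permutation test can give is 0.1, and each of the 5 members without overlap had that value.

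**Figure D1:**
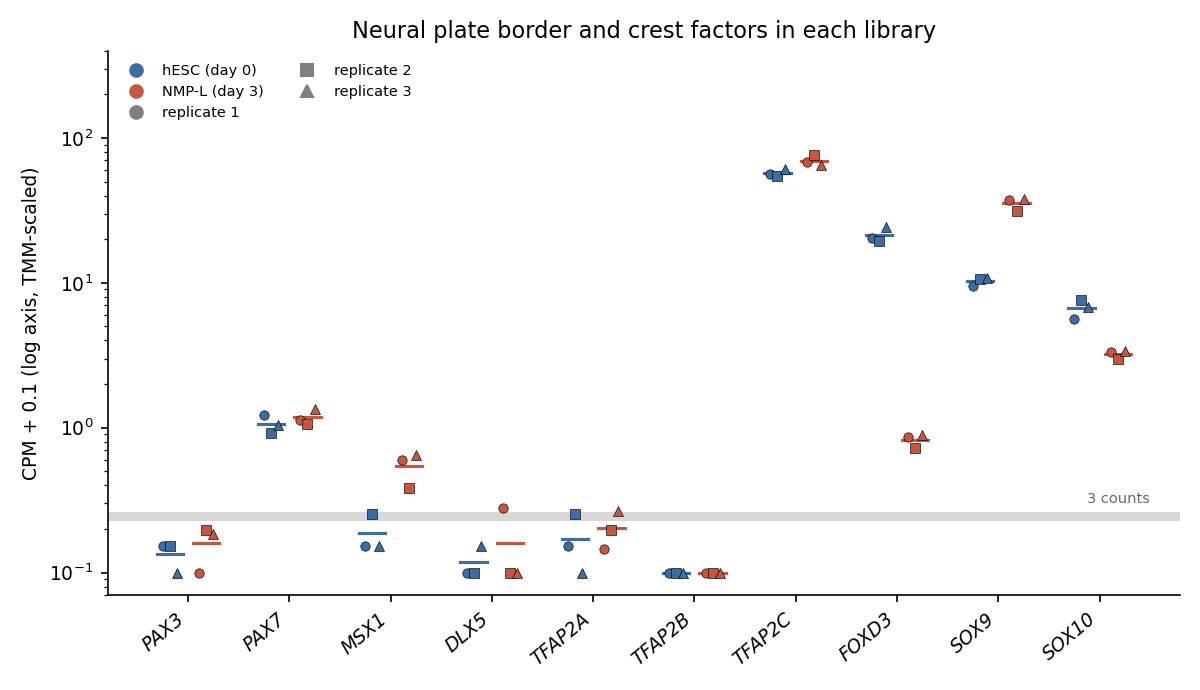
CPM plus 0.1 on a log axis for the 10 members in each of the 3 hESC (blue) and 3 NMP-L (red) libraries, with the mean of each state as a bar and the level of 3 counts as a grey band. FOXD3 drops from a mean of 21.2 to 0.726 CPM while SOX9 climbs from 10.3 to 35.4, and PAX3 and TFAP2B do not leave the band or the space under it.

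Among the border factors, PAX7 (GRCh37 chr1:18957340-19075360, plus strand), a paired-box factor of the dorsal neural tube and crest, was measured at a low level in both states. Its counts were 21, 16 and 18 in hESCs and 23, 20 and 30 in NMP-L cells, and the states overlapped. Mean CPM was 0.962 ± 0.150 in hESCs and 1.08 ± 0.156 in NMP-L cells. The log2 fold change was 0.17 (SE 0.27, adjusted p = 0.61). Its 95% interval ran from 0.747- to 1.70-fold, so changes within that range were not excluded. Relative to GAPDH counts the log2 fold change of PAX7 became 0.73 (adjusted p = 0.044) and relative to HPRT1 counts -0.12. Scaling to GAPDH moved the median of all genes by 0.56 and scaling to HPRT1 by -0.30, and against these medians PAX7 lay 0.15 above in either case.

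PAX3 (chr2:223064606-223163717, minus strand), the closest paralogue of PAX7 and an early border gene, had 1, 1 and 0 counts in hESCs and 0, 2 and 2 in NMP-L cells. All 6 values lay at or under the floor, so no fold is given, and the exact permutation test gave p = 0.6. Within the pair, PAX7 made up 86.0% ± 12.6 of the summed TPM in hESCs and 89.6% ± 9.19 in NMP-L cells. TPM is scaled by effective transcript length, so it allows levels to be compared between genes.

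MSX1 (chr4:4861392-4865663, plus strand), a homeobox gene induced by BMP at the border, had 1, 3 and 1 counts in hESCs and 11, 6 and 13 in NMP-L cells. Every NMP-L library was above every hESC library, and the latter were all at or under the floor. The mean NMP-L level of MSX1 was 2.81-fold above that floor, with no allowance for counting error in NMP-L cells. MSX1 did not pass the filter on low counts. In an edgeR fit without that filter, in which 43.3% of genes were called, its log2 fold change was 2.28 (SE 0.66, adjusted p = 0.010). Even so its level was low, with a mean TPM of 0.51 in NMP-L cells, where 44.2% of all genes had a lower mean TPM. Its paralogue MSX2, also a BMP target, rose from 8, 9 and 7 counts to 19, 29 and 34 (log2 fold change 1.53, SE 0.33, adjusted p = 0.0023) and held 81.8% ± 7.80 of the summed MSX1 and MSX2 TPM in hESCs and 70.2% ± 10.5 in NMP-L cells.

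DLX5 (chr7:96649708-96654262, minus strand), a homeobox gene of the border and the placodes, had 0, 0 and 1 counts in hESCs and 4, 0 and 0 in NMP-L cells. A single NMP-L library thus held all of its NMP-L counts (exact permutation p = 1). DLX6, which lies beside it in a convergent pair, had 0 counts in every hESC library and 0, 1 and 3 in NMP-L cells.

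Of the TFAP2 family, factors that bind GC-rich sites and act in border, crest and surface ectoderm, only TFAP2C was measured above the floor in every library. TFAP2C (chr20:55204362-55214339, plus strand) had 55.9, 54.9 and 61.2 CPM in hESCs and 68.4, 76.0 and 64.8 in NMP-L cells. All 3 NMP-L libraries lay above all 3 hESC libraries, though by a small margin. Its mean was 57.3 ± 3.38 CPM in hESCs and 69.7 ± 5.69 in NMP-L cells, a log2 fold change of 0.28 (SE 0.09, adjusted p = 0.021, 95% interval 1.06- to 1.40-fold). This call was lost without hESC replicate 1 (adjusted p = 0.052), without hESC replicate 2 (0.060) and without NMP-L replicate 2 (0.106), and relative to HPRT1 the direction turned (log2 fold change -0.02). Against the median of all genes under each scaling, TFAP2C lay 0.25 above with TMM, GAPDH and HPRT1 alike.

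TFAP2A (chr6:10393419-10419892, minus strand), the family member best known from the crest, had 1, 3 and 0 counts in hESCs and 1, 2 and 4 in NMP-L cells, and the states overlapped (exact permutation p = 0.6). TFAP2B (chr6:50786436-50815332, plus strand), known from the crest and the limb and kidney, had 0 counts in all 6 libraries, which allows up to 3 counts in each. TFAP2D was also at 0 throughout, and TFAP2E had 2, 0 and 6 counts and then 4, 2 and 9. TFAP2C therefore accounted for 99.6% ± 0.221 of the summed TPM of the 5 TFAP2 genes in hESCs and 99.4% ± 0.381 in NMP-L cells.

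Among the crest specifiers, FOXD3 (chr1:63788238-63790799, plus strand), a forkhead factor of premigratory crest and of pluripotent cells, had the largest fold among the tested members. Its CPM was 20.2, 19.4 and 24.0 in hESCs and 0.76, 0.62 and 0.79 in NMP-L cells, from 378, 377 and 460 counts to 17, 13 and 19. The states were far apart, yet the remaining counts were above the floor in every NMP-L library. FOXD3 was 28.9-fold lower in NMP-L cells (log2 fold change -4.85, SE 0.17, adjusted p = 2.9e-09). In hESCs 78.5% of all genes had a lower mean TPM than FOXD3, and in NMP-L cells 46.7%. Of the 6 pluripotency markers, 4 fell in the same comparison, with log2 fold changes of -2.59 for NANOG, -1.16 for DPPA4, -0.92 for POU5F1 and -0.51 for TDGF1. The summed level of all 6 markers went from between 6762 and 7091 CPM to between 4908 and 5193, and its part in the fall of FOXD3 was not tested.

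SOX9 (chr17:70117161-70122557, plus strand), a SOXE factor that acts in crest formation and in cartilage, had 9.45, 10.6 and 10.7 CPM in hESCs and 37.0, 31.1 and 38.0 in NMP-L cells. The lowest NMP-L library was well above the highest hESC library. SOX9 rose 3.45-fold (95% interval 2.89 to 4.13), a log2 fold change of 1.79 (SE 0.12, adjusted p = 2.3e-07). Of 4 cartilage markers, COL2A1, a collagen gene that SOX9 is known to activate, rose by a log2 fold change of 2.51 (SE 0.16, adjusted p = 2.3e-07), while ACAN and COL9A1, which encode other cartilage matrix proteins, fell from 13.5 to 5.90 and from 9.93 to 4.56 CPM. MATN1 had 7, 4 and 3 counts in hESCs and 1, 1 and 0 in NMP-L cells. The summed level of the 4 genes was 29.1 to 31.3 CPM in hESCs and 39.4 to 55.1 in NMP-L cells, and its part in the result for SOX9 was not tested.

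SOX10 (chr22:38366693-38383429, minus strand), which maintains migrating crest and its glial and melanocyte derivatives, had 5.55, 7.56 and 6.74 CPM in hESCs and 3.23, 2.86 and 3.26 in NMP-L cells. The states did not overlap. SOX10 was 2.12-fold lower in NMP-L cells (log2 fold change -1.08, SE 0.17, adjusted p = 0.00018). It remained above the floor in every NMP-L library, with 72, 60 and 78 counts.

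**Figure D2:**
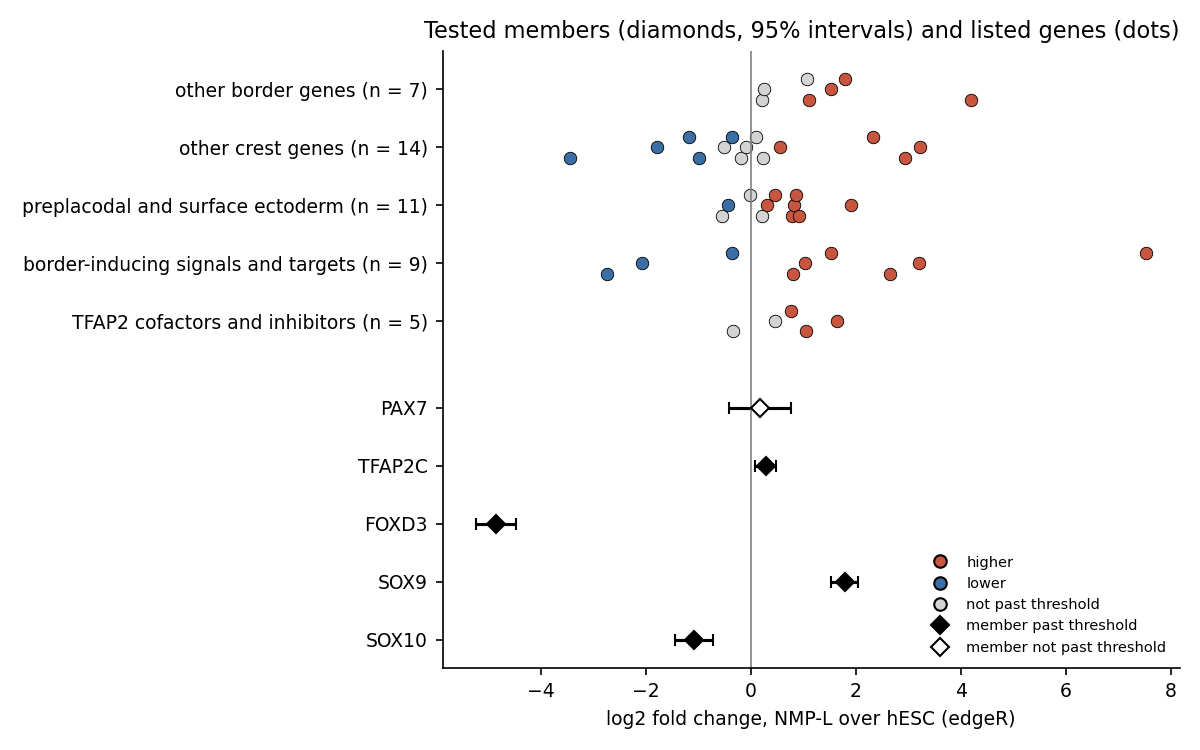
Log2 fold change of NMP-L over hESC (edgeR) for the 5 tested members, as diamonds with 95% intervals, and for the tested genes of 5 lists around them, as dots coloured by direction where the adjusted p was under 0.05. FOXD3 lies at -4.85, below every listed gene shown, and SOX9 at 1.79, while the intervals of PAX7 and TFAP2C lie close to 0.

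SOX8, SOX9 and SOX10 make up the SOXE group, whose members bind the same DNA motif and can stand in for one another in the crest. SOX8 fell from 352, 387 and 424 counts to 219, 235 and 232 (log2 fold change -0.99, SE 0.12, adjusted p = 2.7e-05). In TPM, SOX8 held 57.6% ± 2.17 of the group in hESCs, SOX9 22.4% ± 0.421 and SOX10 20.0% ± 2.04. In NMP-L cells SOX9 held 66.6% ± 3.40, SOX8 25.2% ± 3.55 and SOX10 8.15% ± 0.152. The most abundant SOXE gene was thus SOX8 in each hESC library and SOX9 in each NMP-L library. The summed level was 23.7 ± 1.74 TPM in hESCs and 29.4 ± 2.42 in NMP-L cells.

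Ratios within a library do not depend on how libraries are scaled. The SOX9 to SOX10 TPM ratio was 1.23, 1.01 and 1.15 in hESCs and 8.25, 7.86 and 8.39 in NMP-L cells (exact permutation p = 0.1). The SOX8 to SOX10 ratio was 2.91 ± 0.383 in hESCs and 3.10 ± 0.496 in NMP-L cells, with overlapping libraries (exact permutation p = 0.6). The SOX9 to FOXD3 ratio went from 0.250 ± 0.027 to 25.1 ± 0.735, and the TFAP2C to FOXD3 ratio from 1.93 ± 0.107 to 69.9 ± 15.8.

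**Figure D3:**
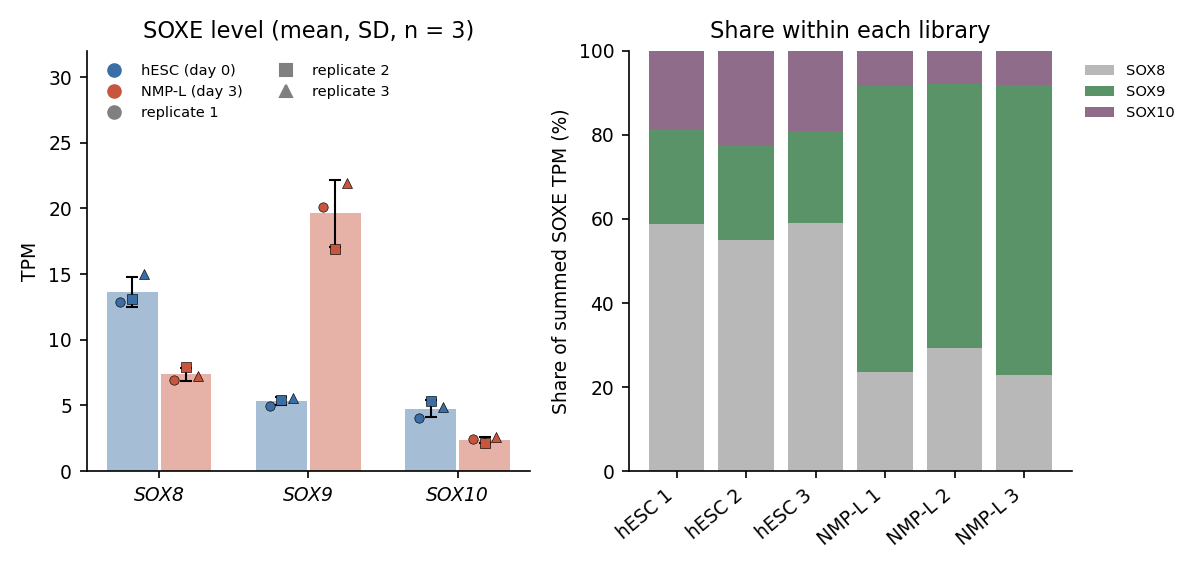
Left, TPM of SOX8, SOX9 and SOX10 in hESCs (blue) and NMP-L cells (red), with bars for the mean, error bars for the SD over 3 replicates and points for single libraries. Right, the share of each gene in the summed SOXE TPM of each library: SOX9 takes a mean of 22.4% in hESCs and 66.6% in NMP-L cells.

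By mean TPM, the order of the members in hESCs was TFAP2C (41.2), FOXD3 (21.4), SOX9 (5.31), SOX10 (4.75) and PAX7 (0.377), followed by the members at or near the floor. SOX9 and SOX10 overlapped between hESC libraries, from 4.98 to 5.57 and from 4.06 to 5.32 TPM. In NMP-L cells the order was TFAP2C (53.5), SOX9 (19.6), SOX10 (2.40), FOXD3 (0.783), MSX1 (0.510) and PAX7 (0.433). FOXD3 ranged there from 0.65 to 0.89 TPM, MSX1 from 0.32 to 0.65 and PAX7 from 0.33 to 0.57, so that MSX1 and PAX7 could not be ordered.

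The members' fall or rise can be set beside that of the genes around them. FOXD3-AS1, a noncoding gene that overlaps FOXD3 on the opposite strand, had 1006, 1148 and 1064 counts in hESCs and 101, 132 and 110 in NMP-L cells (log2 fold change -3.45, SE 0.13, adjusted p = 4.3e-09). It was more abundant than FOXD3 in both states, with a TPM ratio of 10.3 ± 1.35 in hESCs and 25.9 ± 8.59 in NMP-L cells (exact permutation p = 0.1). Whether reads were counted by strand is not given in the sources used here, so reads of both genes cannot be told apart with certainty. POLR2F, an RNA polymerase subunit gene that overlaps SOX10 on the opposite strand, had 775, 947 and 852 counts and then 851, 822 and 786, a log2 fold change of -0.29 (SE 0.10, adjusted p = 0.033), and the same reservation holds for SOX10. SOX9-AS1, on the opposite strand of SOX9, had 4, 2 and 3 counts in hESCs and 19, 6 and 20 in NMP-L cells and was not tested. LINC01152, a noncoding gene 79710 bases from SOX9 that was picked after its values were seen, rose from 16, 17 and 25 counts to 143, 162 and 214 (log2 fold change 2.92, SE 0.22, adjusted p = 6.5e-07). TFAP2A-AS2, on the opposite strand of TFAP2A, had 5, 4 and 7 counts in hESCs and 9, 6 and 7 in NMP-L cells, more than TFAP2A in each library, while TFAP2A-AS1 and CCDC140, which overlap TFAP2A and PAX3, had 0 in all.

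Levels also varied between the NMP-L libraries. Of the 6 members above the floor in every NMP-L library, 5 (FOXD3, SOX9, SOX10, PAX7 and MSX1) had their lowest CPM in NMP-L replicate 2, and TFAP2C had its highest there. Some of these differences rest on few counts, such as 23, 20 and 30 for PAX7 and 17, 13 and 19 for FOXD3. The share of all genes that were lowest in NMP-L replicate 2 was not taken, so the count is not read as a trait of the members. In that library the NMP genes were also lowest, CDX2 having 23.4, 15.5 and 25.4 CPM over the 3 replicates, T 24.1, 14.0 and 26.3, and CDX1 14.0, 9.63 and 13.4. Leaving out each library in turn kept the log2 fold change of SOX9 between 1.71 and 1.87, of SOX10 between -1.22 and -0.98 and of FOXD3 between -4.92 and -4.75. The coefficient of variation of SOX9 was 6.77% in hESCs and 10.5% in NMP-L cells, and that of TFAP2C 5.89% and 8.16%, beside medians over all tested genes of 10.0% and 9.32%.

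Of 10 other genes of the neural plate border, 7 were tested, 4 rose and none fell. Over all tested genes 55.8% were called (29.1% higher and 26.7% lower), which is the background for this list and those that follow. GBX2, a homeobox gene that acts early at the border and in the posterior neural plate, rose from 36, 54 and 56 counts to 1168, 853 and 1135 (log2 fold change 4.20, SE 0.17, adjusted p = 4.4e-09). PRDM1, a zinc finger repressor of border and germ cells, rose by 1.79 (SE 0.29), and ZIC2, a zinc finger factor of the dorsal neural plate, by 1.11 (SE 0.08). The fourth was MSX2. ZIC5 (0.26) and DLX3 (1.07) were among those that did not pass the threshold, and ZIC1, DLX6 and TFAP2E were too low to be tested. The median log2 fold change of the list was 1.11, against 0.03 for all tested genes. With at least 10 counts required in every library, 2 of the list were called, because fewer were tested.

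Of 12 inducing signals and their targets, 9 were tested, 6 rose and 3 fell. SP5, a direct Wnt target, rose from 5, 6 and 6 counts to 1344, 1066 and 1352 (log2 fold change 7.53, SE 0.17, adjusted p = 2.2e-10), and the ligand WNT3A rose by 3.19 (SE 0.35). WNT8A rose by 2.65 (SE 0.49), while the dorsal ligand WNT1 and the surface ectoderm ligand WNT6 had at most 1 count in any library. AXIN2, another Wnt target, fell (-0.35, SE 0.09). The BMP arm, for which the presence of inhibitors is not settled, was mixed: BMP4 fell (log2 fold change -2.08, SE 0.13), as did its target ID1 (-2.74, SE 0.14), whereas BMP7 rose by 1.54, BMP2 by 0.80 and the target ID2 by 1.04. FGF8, with 4, 11 and 7 counts in hESCs, had 3, 2 and 1 in NMP-L cells.

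Of 16 other crest genes, 14 were tested, 4 rose and 5 fell, and their median log2 fold change was -0.15. NGFR, which encodes the p75 receptor used to isolate crest cells, rose from 28.4, 27.0 and 29.3 CPM to 280.0, 275.5 and 233.6 (log2 fold change 3.22, SE 0.10, adjusted p = 1.1e-09). TWIST1, a bHLH factor of cranial crest and mesoderm, rose from 3 counts in each hESC library to 24, 37 and 22 in NMP-L cells. Its log2 fold change was 2.94 (edgeR, SE 0.43, adjusted p = 0.00014). SNAI2, a zinc finger repressor of cadherins, rose from 4, 1 and 2 counts to 14, 16 and 13, and ID3 rose by 0.55. EDNRB, the endothelin receptor of crest and its melanocyte lineage, fell from 98.9, 70.8 and 80.6 CPM to 6.15, 8.68 and 8.11 (log2 fold change -3.45, SE 0.16, adjusted p = 1.4e-08). MYCN (-1.79), ETS1 (-1.18), SOX8 (-0.99) and RHOB (-0.36) fell as well. SNAI1, SOX5, LMO4, ERBB3 and CDH6 did not pass the threshold, and NR2F1 and NR2F2 were not tested.

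Genes of the neighbouring placodal and surface ectoderm were read in the same way. Of 15 such genes, 11 were tested, 7 rose and 1 fell, with a median log2 fold change of 0.46. GATA2, a zinc finger factor of non-neural ectoderm, rose by 1.91 (SE 0.17), EYA1 and EYA2, transcriptional cofactors of the placodes, by 0.92 and 0.83, and GRHL3, a factor of epidermal differentiation, by 0.86. KRT18 and KRT19 also rose, SIX4 fell (-0.44), and TP63 was among those too low to be tested, at 0, 1 and 0 counts and then 3, 5 and 3. Relative to HPRT1, 3 of this list were called.

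Genes for proteins that modulate TFAP2 factors were listed as well. Of 5, all were tested and 3 rose: CITED2, a coactivator of TFAP2 proteins, by 1.64 (SE 0.09), and KCTD1 and KCTD15, which inhibit TFAP2 activity, by 1.05 (SE 0.12) and 0.76 (SE 0.12). CITED1 (0.46) and CITED4 (-0.34) did not pass the threshold. The median of the list was 0.76.

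Genes of cell types that carry these factors later showed no common direction. Of 7 markers of migratory crest and glia, 5 were tested, of which 1 rose (NGFR) and 3 fell (EDNRB among them). ERBB3, the neuregulin coreceptor of crest and Schwann cells, had 118 ± 5.50 CPM in hESCs and 104 ± 4.80 in NMP-L cells (adjusted p = 0.056). S100B was 4.41-fold lower when NMP-L cells were set at the floor, and CDH19 was at or under the floor throughout. The summed level of the list was 325 to 365 CPM in hESCs and 383 to 434 in NMP-L cells, but without NGFR the other 6 summed to 298 to 337 and then 149 to 154 CPM, the opposite direction. Of 4 melanocyte markers, MITF, the lineage's regulator and a known SOX10 target, rose by 1.52 (SE 0.20) and PMEL fell (-0.43), DCT had at most 5 counts in any library, and TYR was at or under the floor.

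**Figure D4:**
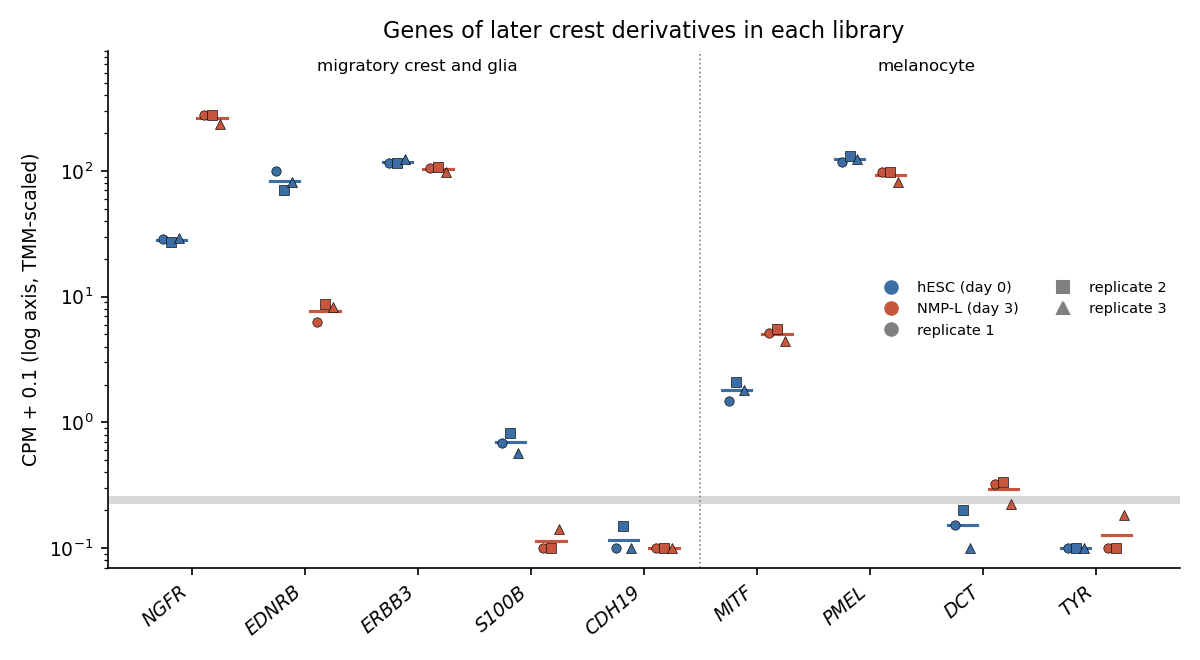
CPM plus 0.1 on a log axis for 5 of the 7 markers of migratory crest and glia and 4 of melanocytes in each library, with the mean of each state as a bar and the level of 3 counts as a grey band. NGFR and MITF are higher in NMP-L cells (red), EDNRB and S100B lower, and CDH19 and TYR stay within or under the band.

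Markers of the other cell types in which TFAP2C or PRDM1 is known were also read. Of 7 amnion and trophoblast markers, GATA2 and KRT7 were tested and rose, by 1.91 and 1.23, while HAND1, VTCN1 and CGA never exceeded the floor and ISL1 and GATA3 were not tested. Their summed level was 7.05 to 8.15 CPM in hESCs and 17.6 to 22.2 in NMP-L cells, and its part in the rise of TFAP2C was not tested. Of 4 germ cell markers, PRDM1 rose, DPPA3 was at least 13.5-fold lower, and SOX17 and NANOS3 were at or under the floor, with a summed level of 2.04 to 2.56 CPM and then 1.46 to 1.84. Of 4 endoderm markers, FOXA2, which also marks node and floor plate, rose from 0, 5 and 2 counts to 473, 264 and 535, SOX17 was at or under the floor, and GATA4 and GATA6 were not tested. The summed level of these 4 was 0.587 to 0.992 CPM in hESCs and 13.4 to 22.6 in NMP-L cells, and its part in the rise of SOX9 was not tested.

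Markers of paraxial mesoderm and of the dorsal neural tube were read last. Of 5 markers of presomitic and paraxial mesoderm, TBX6 (-1.24) and TCF15 (-1.95) fell, and MSGN1, MEOX1 and MYF5 were not tested, with MSGN1 at 0 in every hESC library and at 7, 4 and 2 counts in NMP-L cells. Of 4 markers of the dorsal neural tube, from which crest leaves, OLIG3 fell (-2.24, SE 0.29), LMX1A and WNT1 were at or under the floor, and ATOH1 had 8, 13 and 13 counts and then 2, 4 and 0. PAX3, a further gene of that region, was at or under the floor as well, while MSX1 was above it in NMP-L cells.

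**Figure D5:**
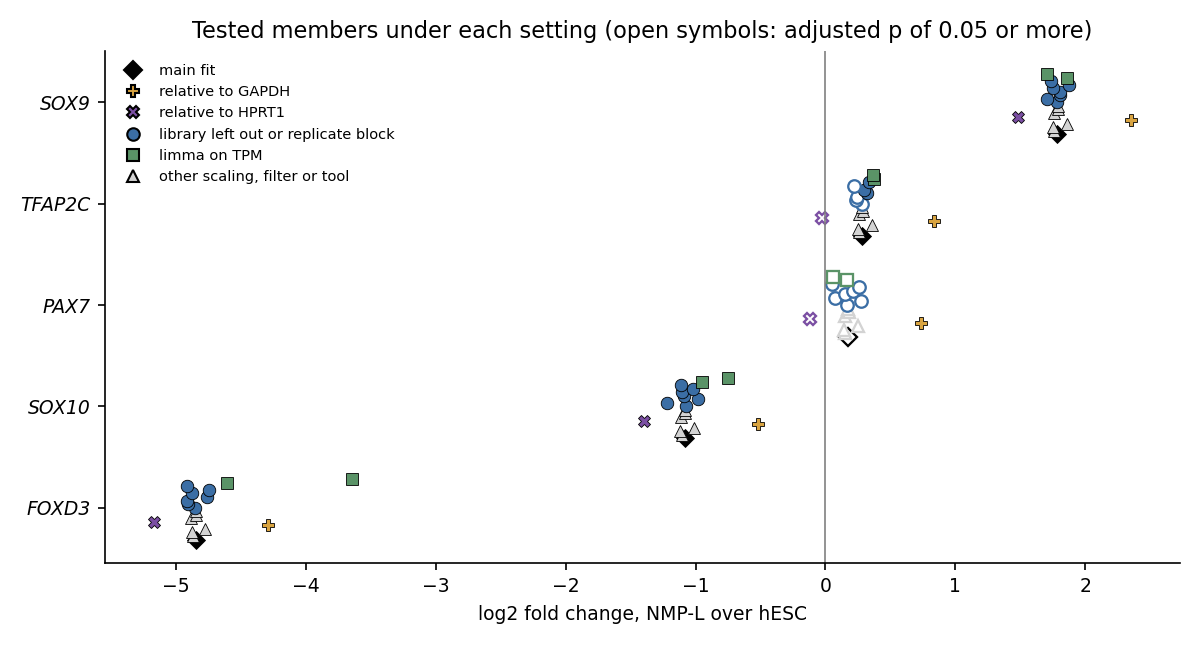
Log2 fold change of NMP-L over hESC for the 5 tested members under TMM scaling (black diamonds) and 17 other settings, with open symbols where the adjusted p was 0.05 or more. FOXD3, SOX10 and SOX9 are past the threshold in every setting shown, TFAP2C in 12 of the 17 others, and PAX7 in 1.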

How the data were processed

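The 10 members and the lists of other genes were chosen with earlier results of these data known. RNA-seq was done on 3 hESC and 3 NMP-L libraries, grouped by their labels (single-end reads of 76 bp). The deposited table gives expected counts from RSEM, without scaling between libraries, and beside them TPM as the authors' RSEM run made it, scaled by effective length to a total of 1000000. The submitters' processing notes name cutadapt 1.9.1, STAR 2.5.2a, RSEM 1.3.0, DESeq2 1.12.3 and hg19, and the annotation and the use of strand are not given in the sources used here. The maintenance medium follows the labels, from which the study's methods differ, and the BMP and TGFβ inhibitors of the methods are not mentioned in the labels of these samples. No per-sample column was left unused (0).

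Expected counts were rounded to whole numbers (8.44% of genes and 0 members had a fractional value), passed through filterByExpr (minimum count 10), scaled by TMM and tested in edgeR 4.0.16 (R 4.3.3) with glmQLFit and glmQLFTest, with p-values adjusted by Benjamini-Hochberg over 15517 genes. Two-sided exact permutation tests used log2(CPM + 0.1). The labels call the replicates biological and give no batch, and where cultures were not separate the p-values measure only the spread between these samples. Same-numbered replicates did not deviate together (correlations -0.46, -0.04 and -0.17). For MSX1, S100B and DPPA3, at or under 3 counts in every library of a state, the other state's mean CPM was set against that floor. These folds make no allowance for counting error in that mean. Named genes were all members and, of each list, up to 4 genes with the largest change among those past the threshold, without overlap and with at least 1 CPM in the higher state. Other genes named fall outside this rule and were named after their values were seen, to account for their lists. Single values of some listed genes are not reported here. Neighbours lay within 100 kb in GENCODE release 44 on GRCh37. Alternatives were RLE, upper-quartile, library-size, GAPDH and HPRT1 scaling, DESeq2 1.42.0, filters, a replicate block, each library left out, and limma 3.58.1 on log2 TPM with a pseudocount of 0.1 or 1. The edgeR and DESeq2 steps were tested on simulated data. Figures used matplotlib 3.10.9 and permutation tests scipy 1.17.1 in Python 3.11.15.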

Additional observations from a re-analysis of the deposited data

How the results depend on the processing

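FOXD3, SOX9 and SOX10 kept direction and call in 17 of 17 alternatives, with log2 fold changes of -5.17 to -3.65, 1.48 to 2.35 and -1.40 to -0.52. The value of FOXD3 closest to 0 came from log2(TPM + 1), where the pseudocount shrinks low values by construction. Scaling to HPRT1 reversed PAX7 (-0.12, adjusted p = 0.83) and TFAP2C (-0.023, adjusted p = 0.93). The number of members called higher moved to 1 relative to HPRT1, with the replicate block and without NMP-L replicate 2 (1 to 3 over the libraries left out), since TFAP2C lost its call (block: log2 fold change 0.28, adjusted p = 0.075). Members called lower stayed at 2, and members called in all lay between 3 and 5. With the replicate block 7560 genes were called, against 8653 without it, and the samples share only a number. Of the other border genes, 7 were called relative to GAPDH and 2 with at least 10 counts in every library (4 to 5 over the libraries left out). Of the placodal genes, 3 were called relative to HPRT1 (7 to 8 over the libraries left out). Scaling to GAPDH and to HPRT1 shifts the values of all genes together, their median by 0.56 and -0.30. The log2 ratio of the NMP-L mean of MSX1 to the floor lay between 1.19 and 2.06. Genes called over all settings lay between 7087 and 11455. Depth limits PAX3, DLX5, TFAP2A and TFAP2B, for which fewer than 5 counts per library were at hand.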
